A study of Homo sapiens with 6 samples.

Results

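A set of 10 regulators that hold epithelial cells in their identity is described here in MCF10A cells grown with and without growth factors. TP63, KLF5, GATA3, ELF3, GRHL1, GRHL2, GRHL3 and OVOL1 are transcription factors, and ESRP1 and ESRP2 are splicing factors. The genes were chosen by name and not by a cut on a measured value, but with earlier results of these data known. All 10 are among the 19198 genes of the deposited table. MCF10A is an established, non-tumorigenic line of human mammary epithelial cells, and both groups were kept in medium with 5% horse serum. The medium of the 3 control samples also held 10 µg/ml of insulin, 0.5 µg/ml of hydrocortisone, 20 ng/ml of EGF and 100 ng/ml of cholera toxin, and the 3 growth factor depleted samples were given none of these. RNA-Seq was performed on total RNA after removal of ribosomal RNA. The study used the depleted cells as a model of epithelial to mesenchymal transition (EMT), and how long these samples had been depleted is not given in the sources used here. No source says whether the replicates came from separate cultures, so the p-values measure only the spread between these samples, which may be technical.

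Epithelial identity rests on factors of several families. TP63 encodes p63, the p53-family factor of basal cells in stratified and glandular epithelia, while GATA3 is known for its part in the luminal cells of the mammary gland. KLF5 is a zinc finger factor of proliferating epithelium, ELF3 is an epithelium-specific ETS factor, the Grainyhead-like proteins GRHL1, GRHL2 and GRHL3 bind genes for cell junctions and the epidermal barrier, and OVOL1 is a zinc finger repressor that acts against mesenchymal genes. ESRP1 and ESRP2 are RNA-binding proteins that set the epithelial splice forms of FGFR2, CD44, CTNND1 and ENAH. During EMT the repressor ZEB1 is known to act on several of these genes, and GRHL2, OVOL1 and OVOL2 are known to act on ZEB1.

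The values are normalized counts, that is, reads on a gene divided by a scaling factor of the sample. Depth ran from 7472418 to 28672630 reads on genes per sample, and 3 reads, taken as the detection floor, correspond to 1.758 to 6.708 normalized counts. The labels class the cells as luminal ductal. In the control samples keratins of both kinds were found, with the basal keratin KRT5 at 12739 to 38503 normalized counts and KRT14 at 12.8 to 264.4. KRT8 (2442 to 8635) and KRT18 (1716 to 6188), keratins of simple and luminal epithelium, were also high, while KRT19 was at 111.3 to 214.3 and the estrogen receptor ESR1 at 63.9 to 205.5. The summed level of 7 mesenchymal markers was 592 to 946 in the controls and 29180 to 78150 in the depleted samples, where 6 of the 7 were called higher and replicate 1 had the highest sum. Sums of 7 basal and of 6 general epithelial markers overlapped between the groups (68380 to 89860 against 53370 to 162100, and 24210 to 46650 against 21380 to 53380). The basal markers went both ways, with 2 positive and 5 negative log2 fold changes. EGFR was the 1 basal marker called (4.31-fold lower, limma adjusted p = 0.041). KRT17, at 5882 to 16142 in the controls and 19236 to 123480 in the depleted samples, made up much of the basal sum after depletion. None of the general epithelial markers was called. Endothelial markers (4 in the table, CDH5 called higher) summed to 167 to 1787 against 265 to 1610, and immune markers (3 in the table, none called) to 284 to 909 against 96.4 to 665, with PTPRC at 0 to 1.97 in the controls and 10.1 to 13.8 in the depleted samples. The part of other cells in the results below was not tested, and in bulk RNA fewer cells of a type and less RNA per cell cannot be told apart.

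TP63 fell in the depleted cells, and it was the sole member of the 10 to pass the test. The test was limma on log2(normalized count + 1) over 16988 genes, and a call needs both an adjusted p (Benjamini-Hochberg) below 0.05 and a difference of 2-fold or more. By this rule 1 of the 10 factors was lower and 0 were higher, where 6.33% of all genes tested were called, 1.97% as lower and 4.36% as higher. At an unadjusted p under 0.05 the same test had 5 factors lower and 0 higher (TP63, KLF5, ELF3, ESRP1 and ESRP2), where 8.62% of all genes tested were lower and 11.4% higher. On the recovered reads edgeR called 1 lower and 0 higher, against 1.7% and 4.02% of all genes. DESeq2 called 3 lower (TP63, KLF5 and ELF3) and 0 higher, against 4.86% and 7.58% of all genes. For 6 of the 10 factors (TP63, KLF5, ELF3, GRHL1, ESRP1 and ESRP2) every depleted sample lay below every control sample, an arrangement seen in 12.1% of all genes tested. None of the 10 had every depleted sample above every control, an arrangement seen in 13.5% of all genes. All 10 log2 fold changes were negative, as were 8809 of the 16988 genes tested, with a median of -1.26 against -0.03 over all genes tested. The sign was not firm for each factor. Without depleted replicate 1 the value was 0.40 for GRHL2 and -0.10 for OVOL1, and without control replicate 3 it was 0.38 for GATA3.

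**Figure D1:**
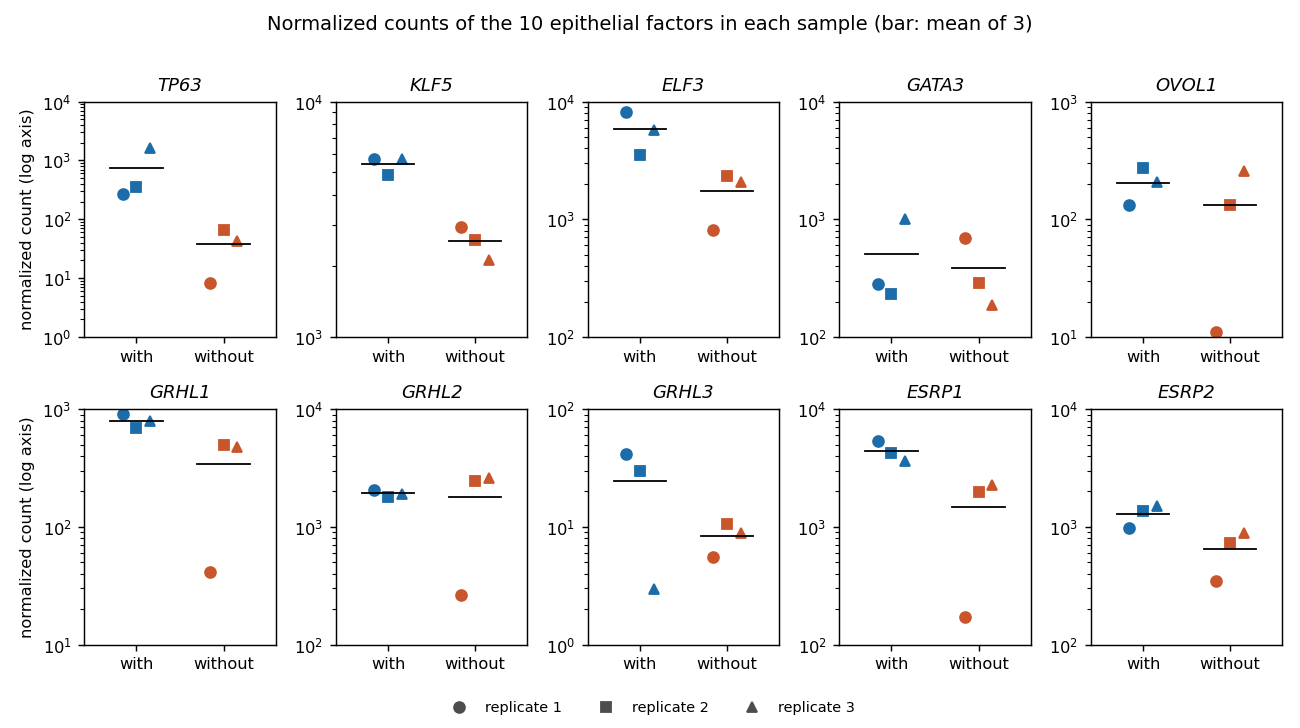
Normalized counts (log axis) of the 10 factors in each of the 3 control samples (with growth factors, blue) and 3 depleted samples (without, orange), with the symbol giving the replicate number and the bar the mean of 3. TP63 shows the widest gap between groups, while depleted replicate 1 lies well below the other depleted samples for GRHL1, GRHL2, OVOL1 and ESRP1.

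The DNA before the start sites is shown for TP63, KLF5, GRHL1 and ELF3, whose groups did not overlap, and for GRHL3, whose groups did. ESRP1 and ESRP2 also had groups without overlap, but no promoter sequence was matched for them. The DNA was searched for the E-box, a sequence that the repressors ZEB1 and SNAI1 bind. In the depleted cells ZEB1 was higher and SNAI1 lower (values given further on). Whether either acts on these factors here was not tested. RefSeq promoter sequences on GRCh38.p14 were matched for 6 of the 10 factors, TP63, KLF5, GATA3, ELF3, GRHL1 and GRHL3, with 13 windows of 250 bases upstream of a start in all. The E-box was searched as CACCTG on one strand and CAGGTG on the other, which are the same site read from either strand. It was found in 2 of the 13 windows, once before ELF3, starting 120 bases ahead of the start, and once before GRHL3, starting 21 bases ahead of it. Of all 35116 windows of this length, 17.5% held it. The 250 bases before TP63 (chr3:189631139-189631388), KLF5 (the first of its starts, chr13:73054726-73054975) and GRHL1 (chr2:9951443-9951692) held none, which says only that these letters are not in these windows. The TP63 window lies directly before the first base of the gene, and any start further inside TP63 was not searched. The other KLF5 window (chr13:73058755-73059004), not shown, also held none. GRHL3 (chr1:24319107-24319356) is shown as the other gene with a match, and ELF3 as the 30 bases around its match (chr1:202010455-202010484), because its window lies in exons of other transcripts. All 5 are on the plus strand, 5′ to 3′, in lower case with the E-box in capitals.
TP63: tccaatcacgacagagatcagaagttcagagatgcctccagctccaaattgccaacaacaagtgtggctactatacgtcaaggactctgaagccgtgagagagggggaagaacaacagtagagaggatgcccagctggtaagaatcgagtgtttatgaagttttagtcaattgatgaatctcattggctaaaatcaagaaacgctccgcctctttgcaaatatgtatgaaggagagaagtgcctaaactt
KLF5: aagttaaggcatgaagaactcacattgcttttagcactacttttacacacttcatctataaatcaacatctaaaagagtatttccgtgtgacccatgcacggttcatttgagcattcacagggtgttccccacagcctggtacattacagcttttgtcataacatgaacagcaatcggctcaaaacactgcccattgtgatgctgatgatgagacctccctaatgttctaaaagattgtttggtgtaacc
GRHL1: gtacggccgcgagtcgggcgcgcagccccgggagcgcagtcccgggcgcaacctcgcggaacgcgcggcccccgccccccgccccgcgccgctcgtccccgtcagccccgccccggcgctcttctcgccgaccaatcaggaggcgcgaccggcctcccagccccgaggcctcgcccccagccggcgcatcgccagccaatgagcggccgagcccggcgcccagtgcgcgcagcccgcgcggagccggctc
GRHL3: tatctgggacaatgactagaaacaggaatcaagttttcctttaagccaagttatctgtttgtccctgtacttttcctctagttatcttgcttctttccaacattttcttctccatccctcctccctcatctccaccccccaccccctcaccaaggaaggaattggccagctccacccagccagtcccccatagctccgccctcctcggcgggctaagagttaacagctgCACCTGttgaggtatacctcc
ELF3: gaatatgcaaatCACCTGgggccaggagcc
A match describes the sequence and not a bound site.

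TP63 (ENSG00000073282.11, chr3:189631389-189897276 of hg38, plus strand) encodes p63, the regulator of basal epithelial cells. It stood at 270.7, 359 and 1615 normalized counts in control replicates 1 to 3 and at 8.24, 64.9 and 42.5 in depleted replicates 1 to 3. Control replicate 3 was the highest sample and depleted replicate 1 the lowest, and the highest depleted sample lay well below the lowest control. This gave a log2 fold change of -4.18 (SE 0.876, 95% interval -6.18 to -2.18, n = 3 against 3), an 18.1-fold lower level with a limma adjusted p of 0.027. The lowest value rests on 9 reads (exact Poisson 95% interval 4.12 to 17.1, counting error only). The fall was seen under every setting tried, with log2 fold changes of -4.75 to -3.34. The call did not hold in limma without control replicate 1 (adjusted p = 0.0524), control replicate 2 (0.0601) or depleted replicate 3 (0.0664), and it held without each of the other 3 samples.

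KLF5 (ENSG00000102554.12, chr13:73054976-73077541, plus strand), the zinc finger factor of proliferating epithelium, had the smallest standard error of the 10. Its normalized counts were 5726, 4890 and 5691 in the controls and 2925, 2579 and 2131 in the depleted samples. No sample stood apart in either group and the groups did not overlap. Depletion gave a log2 fold change of -1.10 (SE 0.274, 95% interval -1.73 to -0.48), with a limma adjusted p of 0.0521, just outside the threshold. Without control replicate 3 the limma adjusted p was 0.0335 and the gene was called at a log2 fold change of -1.07. It was not called when each other sample was left out in turn, with limma adjusted p values up to 0.257. The replicate block in limma gave 0.193 and edgeR 0.0739, both without a call, and DESeq2 called it (adjusted p = 0.00427). The log2 fold change stayed between -1.21 and -0.98 whichever sample was left out.

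ELF3 (ENSG00000163435.14, chr1:202007945-202017183, plus strand), the epithelium-specific ETS factor, was measured at 8164, 3493 and 5750 normalized counts in the controls and 813, 2329 and 2064 in the depleted samples. Depleted replicate 1 was lowest, and the lowest control lay above the highest depleted sample. On the log2 scale the difference was -1.80 (SE 0.479, 95% interval -2.89 to -0.70, limma adjusted p = 0.0664), and DESeq2 gave an adjusted p of 0.00768. By edgeR the adjusted p was 0.086. No sample left out brought a call in limma, with adjusted p values of 0.0676 to 0.2045. A part of the ELF3 exons, 9.24%, is shared with the opposite-strand ELF3-AS1 and as much again with the same-strand ENSG00000249007. Both neighbours are in the table, ELF3-AS1 at 170, 80.3 and 133 normalized counts in the controls against 39.4, 80.6 and 60.4, and ENSG00000249007 at 62.7, 44.5 and 111 against 1.83, 5.90 and 13.4. The libraries were strand-specific, but the strand setting used in counting is not given in the sources used here, so reads of ELF3 and of ELF3-AS1 over the shared exons may not have been told apart.

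GATA3 (ENSG00000107485.14, chr10:8045378-8075198, plus strand), the luminal zinc finger factor, did not separate the groups. Its normalized counts were 282, 231 and 1013 in the controls and 692, 285 and 186 in the depleted samples. Control replicate 3 and depleted replicate 1 were the high samples, each more than 2-fold above the other replicates of its group. The log2 fold change of -0.28 had a 95% interval from -1.78 to 1.21 (limma adjusted p = 0.865), and its sign turned to 0.38 without control replicate 3 and to 0.13 without depleted replicate 3.

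OVOL1 (ENSG00000172818.8, chr11:65787063-65797214, plus strand), the zinc finger repressor of mesenchymal genes, was measured at 132, 275 and 209 normalized counts in the controls and 11.0, 132 and 255 in the depleted samples. Only depleted replicate 1 was low, with 12 reads (exact Poisson 95% interval 6.2 to 21.0), and the other depleted samples lay within the control range. Its log2 fold change was -1.41 (95% interval -3.71 to 0.89, limma adjusted p = 0.507) and -0.10 without depleted replicate 1. Of its exon bases, 27.3% are shared with ENSG00000255404 on the opposite strand, a gene not analysed here.

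GRHL1 (ENSG00000134317.16, chr2:9951693-10002277, plus strand), a Grainyhead-like factor of the epidermis, was measured at 902, 685 and 788 normalized counts in the controls. The depleted samples gave 41.2, 496 and 478, so all 3 lay below the controls but replicate 1 was far lower than the others. The log2 fold change was -1.87 (SE 0.855, 95% interval -3.82 to 0.09, limma adjusted p = 0.274), and -0.69 without depleted replicate 1.

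GRHL2 (ENSG00000083307.9, chr8:101492439-101669726, plus strand), the Grainyhead-like factor known to act on CDH1 and claudin genes, was split within the depleted group. It stood at 2065, 1800 and 1911 normalized counts in the controls and at 265, 2445 and 2616 in the depleted samples. Depleted replicate 1 was at 13.8% of the control mean, while replicates 2 and 3 were at 127% and 136% and lay above every control. The log2 fold change of -0.69 (95% interval -2.48 to 1.10, limma adjusted p = 0.702) turned to 0.40 without depleted replicate 1 (adjusted p = 0.569).

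GRHL3 (ENSG00000158055.14, chr1:24199558-24364482, plus strand), the member of the family known for epidermal barrier formation, was close to the floor in several samples. Its normalized counts were 41.4, 29.9 and 2.95 in the controls and 5.49, 10.5 and 8.94 in the depleted samples. Control replicate 3 was the lowest of all 6 samples, with 3 reads (exact Poisson 95% interval 0.619 to 8.77), and the depleted samples held 6, 16 and 4 reads. Over all samples the log2 fold change was -0.93 (95% interval -3.07 to 1.21, limma adjusted p = 0.655). Without control replicate 3 it was -2.00 and passed the test at an adjusted p of 0.0468.

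ESRP1 (ENSG00000104413.14, chr8:94641074-94707466, plus strand), the more abundant of the epithelial splicing regulators, was measured at 5359, 4201 and 3617 normalized counts in the controls and 170, 1971 and 2263 in the depleted samples. All 3 depleted samples lay below all 3 controls, and replicate 1 was at 3.88% of the control mean where replicates 2 and 3 were at 44.9% and 51.5%. The log2 fold change was -2.25 (SE 0.873, 95% interval -4.24 to -0.25), with an unadjusted p of 0.0316 and a limma adjusted p of 0.192. Without depleted replicate 1 it was -1.04.

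ESRP2 (ENSG00000103067.10, chr16:68229033-68238102, minus strand), its paralog, was measured at 982, 1354 and 1505 normalized counts in the controls and 345, 725 and 883 in the depleted samples. The groups did not overlap, with depleted replicate 1 lowest at 27.0% of the control mean and the others at 56.6% and 69.0%. For ESRP2 the log2 fold change was -1.06 (SE 0.393, 95% interval -1.96 to -0.16), with an unadjusted p of 0.026 and a limma adjusted p of 0.172, and -0.66 without depleted replicate 1. Exons of ESRP2 overlap those of NFATC3 on the opposite strand over 4.38% of their bases and those of ENSG00000262160 on the same strand over 2.18%.

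**Figure D2:**
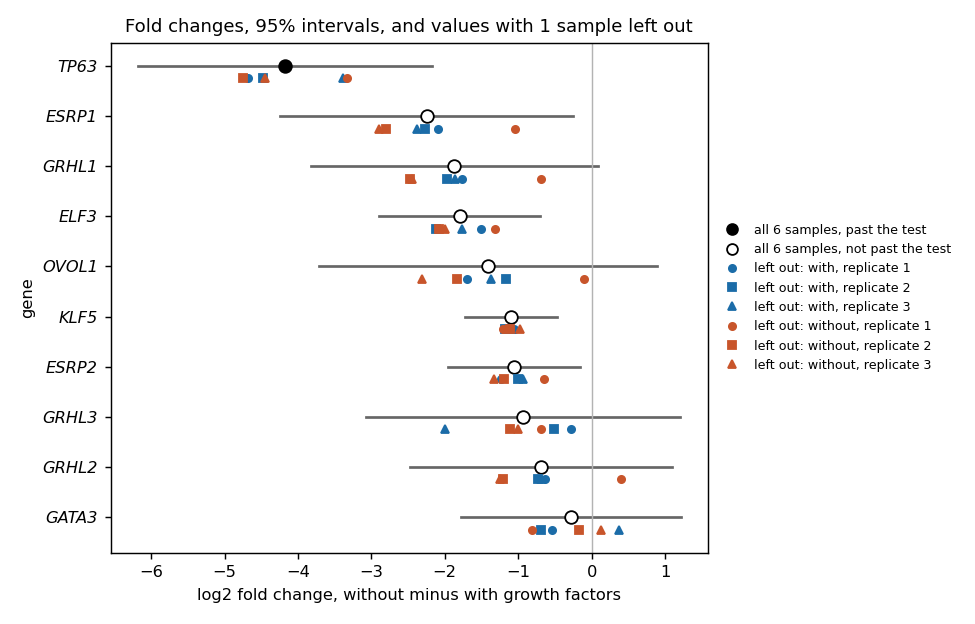
Log2 fold change of each factor, depleted against control, with its 95% interval (line) for all 6 samples and the value with 1 sample left out (small symbols, blue for a control and orange for a depleted sample). TP63 (filled) passed the test; leaving out depleted replicate 1 brings GRHL1, OVOL1 and ESRP1 nearest to 0 and takes GRHL2 above it.

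The depleted replicates differed from each other across most of the 10 factors. Replicate 1 was the lowest of the 3 for 8 factors, replicate 3 for 2 (KLF5 and GATA3) and replicate 2 for 0. The median level of the factors was 13.9% of the control mean in replicate 1, 51.7% in replicate 2 and 45.4% in replicate 3, and 8, 5 and 5 factors were under 50%. The counts of lowest samples and of factors under 50% describe the 10 factors only. Their shares over all genes were not computed, so they are not read as particular to the factors. In replicate 1, 7 factors (TP63, ELF3, GRHL1, GRHL2, OVOL1, ESRP1 and ESRP2) were at least 2-fold below both other depleted samples, as were 8.0% of all genes tested, and GATA3 was at least 2-fold above both, as were 4.76% of all genes. None of the factors stood apart in this way in depleted replicates 2 and 3, where 1.14% and 3.68% of all genes were below. Replicate 1 also had the highest sum of mesenchymal markers, 78150 normalized counts against 31110 and 29180, and the part of this in the result was not tested. Among the controls, replicate 3 stood apart for GRHL3 (below) and for TP63 and GATA3 (above), as did 13.5% and 16.8% of all genes.

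**Figure D3:**
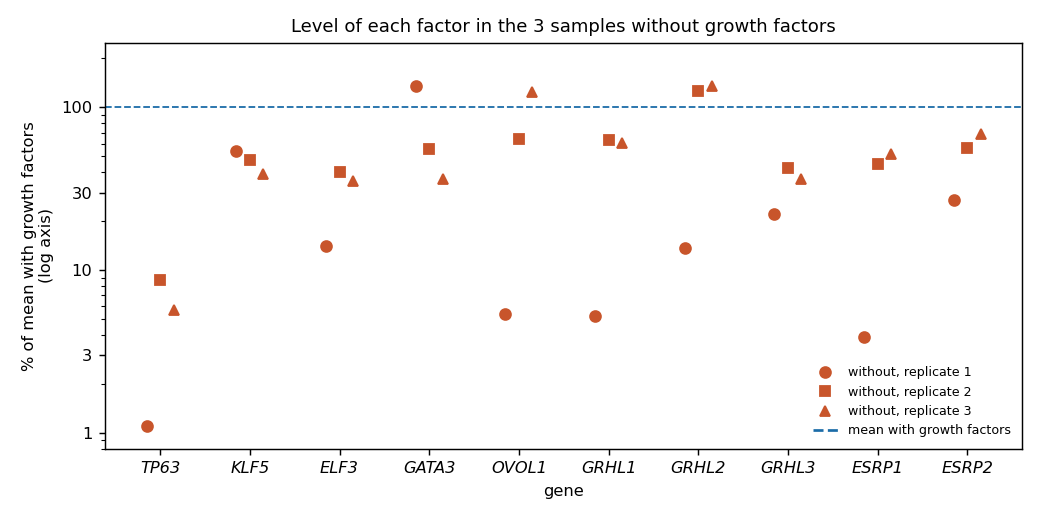
Level of each factor in the 3 depleted samples as a percentage of the mean of the 3 controls (log axis, dashed line at 100%). Replicate 1 (circles) ranges from 1.10% for TP63 to 136% for GATA3 and is the lowest point for 8 of the 10 factors.

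Levels were also divided by exon length, taken over all annotated exons of a gene. The transcripts in use may be shorter by an amount that differs between genes, so the order below is approximate. Per kilobase of exon the highest factor was KLF5 in both groups, with a mean of 1477 normalized counts per kb in the controls and 692 in the depleted samples. In the controls ESRP1 (901) and ELF3 (807) followed and did not differ beyond their spread. Next came GRHL2 (318) and ESRP2 (247), whose ranges did not overlap. ESRP2, GATA3 (150), TP63 (100.1) and GRHL1 (99.6) formed a run in which each overlapped the next. TP63 spread over 36.2 to 216.0 in the controls, and its mean there rests on replicate 3. OVOL1 (53.9) lay below GRHL1, and GRHL3 (5.80) was last, each with a range apart from the one above. In the depleted samples KLF5 alone was apart from its neighbour, and the order after it was ESRP1 (301), GRHL2 (293), ELF3 (242), ESRP2 (126), GATA3 (114), GRHL1 (42.6), OVOL1 (34.9), TP63 (5.15) and GRHL3 (1.95) normalized counts per kb, with every neighbouring pair overlapping.

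Ratios of paralogs within a sample do not depend on the scaling between samples, and 4 pairs were compared. The log2 ratio of GRHL1 to GRHL2 was -1.19, -1.39 and -1.28 in the controls and -2.66, -2.30 and -2.45 in the depleted samples. Its groups did not overlap and depleted replicate 1 did not stand apart, although both genes were lowest there. The mean ratio was -1.29 ± 0.099 (SD, n = 3) in the controls and -2.47 ± 0.181 (SD, n = 3) in the depleted samples, a difference of -1.18 (exact two-sided permutation p = 0.1, the smallest that 3 against 3 samples can give, adjusted p = 0.4 over the 4 pairs). For ESRP1 to ESRP2 the log2 ratio was 2.45, 1.63 and 1.26 in the controls and -1.01, 1.44 and 1.36 in the depleted samples. ESRP1 exceeded ESRP2 in 5 of the 6 samples, and depleted replicate 1 was the exception (difference -1.19, exact permutation p = 0.3, adjusted p = 0.6). Without that sample the difference was -0.38. The ratios to GRHL3 differed by -0.93 for GRHL1 and 0.25 for GRHL2 (exact permutation p = 0.6 and 1.0, adjusted p = 0.8 and 1.0), with overlapping groups.

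**Figure D4:**
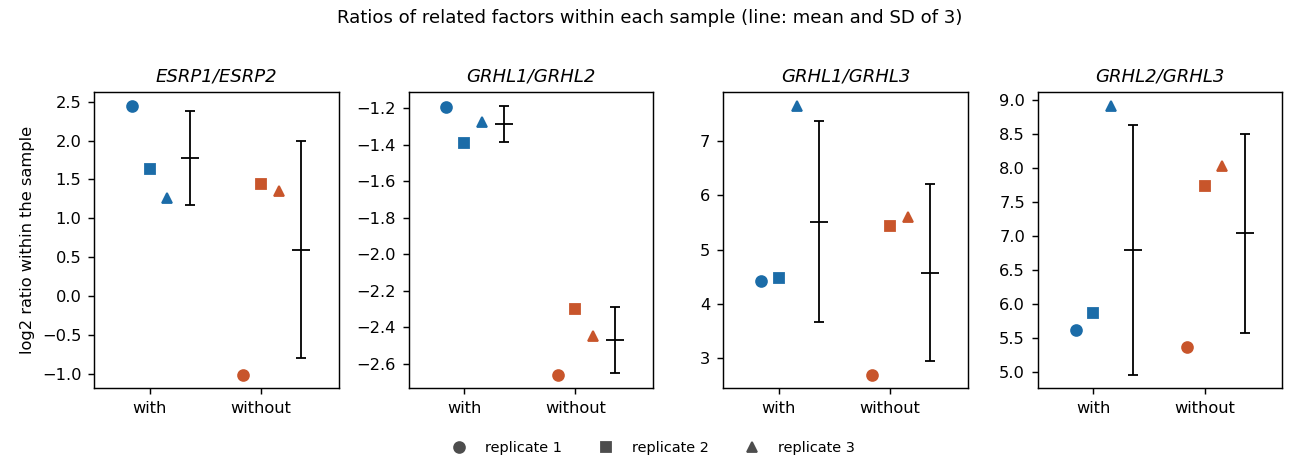
Log2 ratio of normalized counts of 2 paralogs within each sample, for 4 pairs, in control (with) and depleted (without) samples, with mean and SD of 3 beside the points. The GRHL1/GRHL2 ratio is the 1 pair without overlap, at -1.39 to -1.19 in the controls and -2.66 to -2.30 in the depleted samples.

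Profiles over the 6 samples were compared by the root mean square difference between centred log2 values, as a description. GRHL1 and ESRP1 had a difference of 0.243, and each was the other's nearest among the 10. ESRP1 had GRHL1 as its nearest of all genes, and GRHL1 had TMPRSS13 (0.113), a membrane serine protease, ahead of ESRP1. GRHL2 lay nearest to CGN (0.154), which encodes the tight junction protein cingulin. ELF3 lay nearest to DSP (0.177), which encodes desmoplakin, and ESRP2 to LLGL2 (0.187), a cell polarity gene. KLF5 lay nearest to DIAPH2 (0.0403), TP63 to FOXP2 (0.15), GATA3 to TAPT1-AS1 (0.115), OVOL1 to RNF223 (0.331) and GRHL3 to BRI3BP (0.277).

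Among 15 other epithelial transcription factors, 10 were in the table and 9 were tested, of which 0 were called higher, 1 lower and 8 neither, with a median log2 fold change of -1.38. TFCP2L1, a CP2-family relative of the Grainyhead-like genes, fell from 11705, 7996 and 3573 normalized counts in the controls to 65.0, 503 and 570. All depleted samples lay far below all controls, a 26.0-fold lower level (log2 fold change -4.70, limma adjusted p = 0.0122), although without control replicate 1 the adjusted p was 0.0575. Its log2 fold change was -3.69 without depleted replicate 1 and -5.25 without depleted replicate 3. Its relatives TFCP2 (355, 397 and 396 against 419, 415 and 371) and UBP1 (1302, 1307 and 1277 against 1315, 1542 and 1183) had overlapping groups and were not called (adjusted p = 0.928 and 0.951). OVOL2, the paralog of OVOL1, was at 297, 277 and 224 in the controls and 3.66, 184 and 161 in the depleted samples, with depleted replicate 1 again the low sample and no overlap between groups (adjusted p = 0.35). At an unadjusted p under 0.05, GATA6 was higher, and the counts were 1 higher and 2 lower. edgeR called 0 higher and 1 lower, and DESeq2 1 higher and 2 lower. Of all genes tested, limma called 4.36% higher and 1.97% lower, and 11.4% and 8.62% had an unadjusted p under 0.05. edgeR called 4.02% higher and 1.7% lower, and DESeq2 7.58% and 4.86%. These shares are also the measure for the lists below, and with lists this short no count is read as a result about a list.

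Known targets of p63 and of the Grainyhead-like factors were counted in the same way. Of 12 tested p63 targets, 1 was called higher, 1 lower and 10 neither, with a median log2 fold change of -0.52. At an unadjusted p under 0.05 the counts were 2 higher and 3 lower, edgeR called 0 in either direction, and DESeq2 called 1 higher and 3 lower. TRIM29, a gene of basal epithelium, fell from 7428, 6528 and 6621 normalized counts to 1572, 2846 and 3352 (2.78-fold lower, limma adjusted p = 0.0429), and its groups were well apart. FRAS1, an extracellular matrix gene of basement membranes, rose from 769, 101 and 838 to 4437, 4267 and 2779 (9.29-fold higher, limma adjusted p = 0.0393), with control replicate 2 the lowest sample. TRIM29 was called again only without control replicate 3 (adjusted p = 0.0357) and otherwise reached adjusted p values up to 0.13, and by edgeR its adjusted p was 0.0646. FRAS1 had an edgeR adjusted p of 0.0567. In limma its log2 fold change was 3.21 with all samples and 2.22 without control replicate 2, and it was called again without control replicate 2 or 3 and reached adjusted p values up to 0.13 without the other samples. Of 12 tested Grainyhead-like targets, 0 were called by limma in either direction, with a median log2 fold change of -0.95. At an unadjusted p under 0.05 the counts were 1 higher and 2 lower, edgeR called 0, and DESeq2 called 0 higher and 1 lower. CDH1, which encodes E-cadherin, was at 20039, 13132 and 12961 normalized counts in the controls and 609.6, 13234 and 13118 after depletion (adjusted p = 0.448 in limma). As for GRHL2, only depleted replicate 1 was low, and for CDH1 the other depleted samples lay within the control range.

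Besides ESRP1 and ESRP2, 12 other splicing regulators were listed and 11 tested, of which 2 were called lower, 0 higher and 9 neither, with a median log2 fold change of -0.29 (3 lower and 0 higher at an unadjusted p under 0.05, 1 lower by edgeR and 3 by DESeq2, and 0 higher by either). RBM47, an RNA-binding protein of epithelial cells, fell from 1232, 922 and 1018 normalized counts to 382, 285 and 177, and its groups did not overlap (3.91-fold lower, limma adjusted p = 0.0134). MBNL3, a muscleblind-like splicing factor, fell from 1545, 1041 and 1223 to 590, 543 and 282 (2.79-fold lower, adjusted p = 0.0463). RBM47 lost its call without control replicate 1 (adjusted p = 0.0616), depleted replicate 2 (0.0578) or depleted replicate 3 (0.0585), and MBNL3 kept its call only without control replicate 3 (0.0432). RBFOX2 (3772, 3308 and 4373 against 4036, 5691 and 5205) and QKI (2384, 2200 and 3526 against 2144, 2396 and 1766), both known for mesenchymal splice forms, overlapped between the groups and were not called. The splice forms themselves cannot be read from gene counts. Among 10 genes that host exons set by ESRP proteins, SLK, a serine/threonine kinase, was the 1 gene called (7491, 6457 and 6072 against 2382, 3291 and 2585, 2.44-fold lower, adjusted p = 0.0328, and called again only without control replicate 3). By edgeR SLK was not called (adjusted p = 0.0507), and DESeq2 called it lower. The other 9, FGFR2, CD44, CTNND1 and ENAH among them, were not called at the gene level in either direction, and the list's median log2 fold change was 0.19 (0 higher by limma, edgeR and DESeq2, 1 higher at an unadjusted p under 0.05).

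Of 4 repressors of epithelial genes tested, 1 was called higher, 1 lower and 2 neither, with a median log2 fold change of 1.08. ZEB1 rose from 23.8, 23.4 and 48.2 normalized counts in the controls to 1087, 436 and 293 in the depleted samples, with no overlap and depleted replicate 1 the highest (16.7-fold higher, limma adjusted p = 0.00488). SNAI1, which encodes Snail, fell from 147, 152 and 128 to 18.3, 21.0 and 8.94, also without overlap (8.83-fold lower, adjusted p = 0.00789). Both calls held with each sample left out in turn. ZEB2 (144, 352 and 656 against 734, 517 and 378) and SNAI2 (97.8, 419 and 123 against 159, 1089 and 606) overlapped between the groups and were not called (adjusted p = 0.546 and 0.35).

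**Figure D5:**
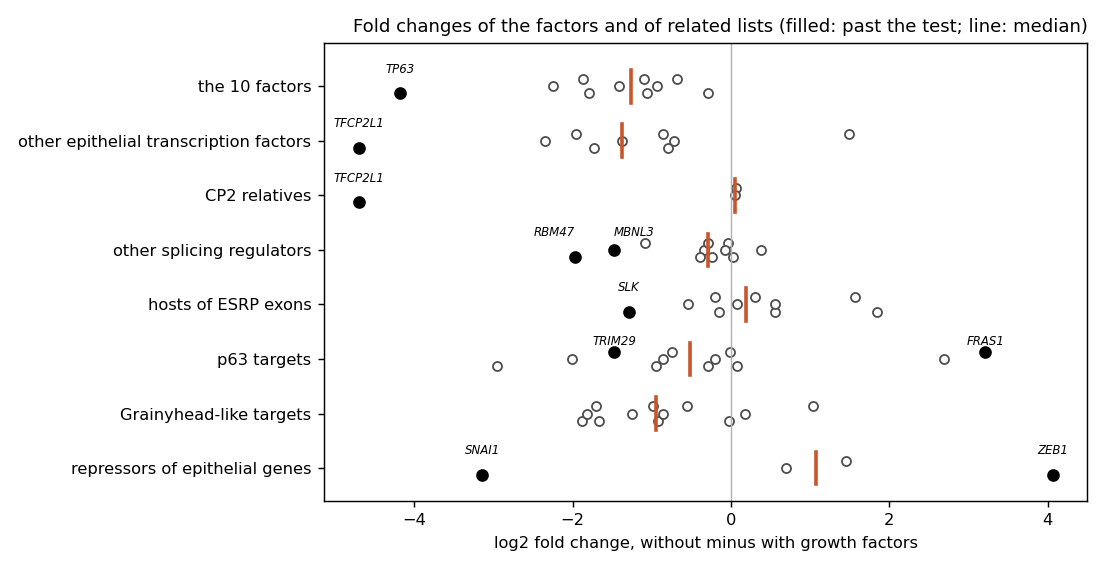
Log2 fold changes, depleted against control, of the 10 factors and of the related gene lists, 1 circle a gene, filled and named where it passed the test, with a line at the median of each list. TFCP2L1 stands in both of the lists it belongs to; ZEB1 and FRAS1 are the filled points above 0.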

How the data were processed

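RNA-Seq of MCF10A cells was analysed in 6 samples, 3 with and 3 without growth factors, grouped by the sample labels. The design text of the series gives fewer replicates per condition than the labels, and the labels were used. Ribosomal RNA was removed and stranded libraries were read from one end for 100 bases. The authors trimmed reads with cutadapt 1.6, aligned them with TopHat2 to hg38 and obtained counts per gene from HTSeq with Gencode v22. The deposited signal values are counts that the authors divided by DESeq2 (1.8.1) size factors. All values gave whole reads (100.0% within 0.01 reads), so reads per gene were recovered. All genes of the table reach 3 reads in 3 or more samples. The planned test was kept although raw counts could be recovered. Gencode v44 named 18913 of the 19198 identifiers and gave coordinates and exon lengths.

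Differences were tested with limma 3.58.1 (R 4.3.3, trend) on log2(normalized count + 1) for 16988 genes with a mean of at least 10, after the procedure was tested on simulated data. Fold changes on this scale understate the change of low genes. Alternatives were pseudocounts of 0.5 and 10, no filter, a mean of at least 50, the same total, quantile normalization, no trend, a replicate block, each sample left out, edgeR 4.0.16 and DESeq2 1.42.0 on the recovered reads, adjusted p under 0.1, no fold limit and, chosen after seeing the data, a length and GC correction. Paralog ratios were tested by exact permutation (scipy 1.17.1). Depth covers counting error only, since reads carry no molecular identifiers.

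All 10 factors were named, with the called genes of each list, the nearest genes by profile and a few further list genes chosen after their values were seen. The factors and lists were chosen with earlier results of these data known. BARX2, ELF5, TFAP2B, TP73, ZNF750, CELF2, DSG1, PGR, CD3E, CD68 and TEK are not analysed here, and SPDEF, PKP1, CLDN3, VWF and PTPRC were under the minimum mean and not tested.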

Additional observations from a re-analysis of the deposited data

How the results depend on the processing

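The number of factors called lower was 1 and became 0 without the trend, 3 with DESeq2 and 3 at an adjusted p under 0.1, and it ranged from 0 to 3 with 1 sample left out: 0 without control replicate 1, control replicate 2 or depleted replicate 3, and 3 without control replicate 3. The number of genes called was 1076 and became 2112 with DESeq2 and 1706 at an adjusted p under 0.1, with a range of 453 (without depleted replicate 2) to 2474 (without control replicate 3), 467 without depleted replicate 3, 634 without control replicate 1 and 675 without control replicate 2. Signs turned with 1 sample left out for GATA3 (-0.81 to 0.38; 0.13 without depleted replicate 3), GRHL2 (-1.25 to 0.40), UBP1 (-0.054 to 0.136), the GRHL1/GRHL3 log2 ratio (-1.48 to 0.13; 0.003 without depleted replicate 1) and the GRHL2/GRHL3 log2 ratio (-0.35 to 1.31; -0.22, -0.10 and -0.25 without control replicate 2 and depleted replicates 2 and 3). The causes were not tested. Deviations from the group mean had correlations of -0.073, -0.283 and -0.323 between same-numbered samples. With 3 samples in a group such correlations are tied to each other. They cannot decide whether same-numbered samples were handled together. With the replicate block, 1 factor and 967 genes were called, and the limma adjusted p was 0.00323 for TP63 and 0.193 for KLF5. Among the named list genes, the block took the calls from MBNL3, SLK and TRIM29. The length and GC correction gave 1123 genes, and 775 with the replicate block, and kept the TP63 call (adjusted p = 0.0294). GRHL3 held between 3 and 16 reads in control replicate 3 and the depleted samples, so its values there carry wide counting intervals. Each group has 3 samples, and a gene not called is not shown to be unchanged.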
